A study of Mus musculus with 12 samples.

Results

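The genes described here are 10 transcripts that report on stress in the endoplasmic reticulum (ER) and on amino acid stress, taken by gene name from the 55401 genes of the expression tables: Hspa5, Herpud1, Xbp1, Atf4, Atf3, Ddit3, Trib3, Asns, Chac1 and Sesn2. They were measured by RNA-seq of cultured adult neural stem/progenitor cells (aNSPCs), isolated from the forebrain of C57BL/6 mice aged 8 to 10 weeks and grown as dividing cells. The proliferating Ctrl group had no added NAD+ and the proliferating NAD+ group had 1 mM NAD+, while the differentiation Ctrl and differentiation NAD+ groups had 1 µM retinoic acid and 5 µM forskolin in addition, without NAD+ and with 1 mM NAD+, respectively. Each of the 4 groups held 3 samples, 12 in all, and the groups follow the sample titles, since a label field lists every sample as untreated. The authors describe the 3 samples of a group as biological repeats. Neither they nor the labels say whether the sequenced samples came from separate cultures or animals, so p-values measure the spread between these samples only.

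The unfolded protein response starts when unfolded proteins build up in the ER lumen and draw the chaperone BiP away from the sensors Ire1, Perk and Atf6. Perk and other kinases, which sense amino acid shortage, viral RNA or lack of haem, phosphorylate the translation factor eIF2, lower general translation and favour translation of the Atf4 message, and this shared arm is called the integrated stress response. In neural progenitors the pathway is known for its tie to protein synthesis during the change from division to differentiation. Atf4 is controlled to a large degree at translation, and Xbp1 by splicing, so the amount of their transcripts does not measure the activity of their proteins.

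By role, Hspa5 encodes BiP, the main ER chaperone, and Herpud1 an ER membrane protein that helps to send misfolded proteins to degradation. Xbp1 encodes the transcription factor that Ire1 activates by splicing. Atf4 encodes the transcription factor at the centre of the integrated stress response, Atf3 and Ddit3 (CHOP) are transcription factors induced after it, and Trib3 encodes a pseudokinase that dampens the response. Asns encodes asparagine synthetase, Chac1 an enzyme that degrades glutathione, and Sesn2 a leucine sensor that restrains mTORC1.

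In the mouse annotation (GENCODE M21, mm10) all 10 are protein-coding genes. Hspa5 (ENSMUSG00000026864) lies at chr2:34771970-34777547 on the plus strand, Herpud1 (ENSMUSG00000031770) at chr8:94386438-94395377 plus, Xbp1 (ENSMUSG00000020484) at chr11:5520659-5525893 plus, Atf4 (ENSMUSG00000042406) at chr15:80255184-80257541 plus and Atf3 (ENSMUSG00000026628) at chr1:191170296-191218039 minus. Ddit3 (ENSMUSG00000025408) lies at chr10:127290774-127296288 plus, Trib3 (ENSMUSG00000032715) at chr2:152337422-152344032 minus, Asns (ENSMUSG00000029752) at chr6:7675169-7693254 minus, Chac1 (ENSMUSG00000027313) at chr2:119351229-119354381 plus and Sesn2 (ENSMUSG00000028893) at chr4:132492032-132510501 minus. The name Ddit3 also belongs to a second identifier, ENSMUSG00000116429, which was at 0 in all 12 samples and was left out of the fits. Of the exon bases of Ddit3, 68 (4.0%) overlap Mars, the methionyl-tRNA synthetase gene on the opposite strand, whose mean was 20.978 FPKM, and the use of strand in the counting is not given in the sources used here, so reads of the 2 genes cannot be told apart in those bases.

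The promoters of all 10 members were found in the RefSeq table (GRCm38.p6), which gives 250 bases before and 50 after each start site, and 2 kinds of stress element were found in 6 of them by their letters, on either strand. The CARE, TGATGNAA, is the element that Atf4 and C/EBP proteins bind, and it was present in 5 of 10 members and in 3.97% of 32851 promoters. The members were taken as stress-response genes, so these shares are a description and not a test. The ERSE, CCAAT and CCACG with 9 bases between them, is bound by Atf6 and NF-Y. In these exact letters and spacing it was present in Hspa5 alone among the members and in 0.12% of all promoters. Other spacings and mismatches were not searched, so the other members may hold related elements. The CRE (TGACGTCA), found in 1.79% of promoters, and the UPRE (TGACGTGG), found in 0.68%, were found in 0 of 10 members, which says only that these letters are not in these windows. The 5 CAREs are shown with 30 bases each, 5′ to 3′ in the direction of the gene, with the match in capitals, because Atf4 fell in 3 of the comparisons below and these members carry the letters of its element.
Asns, chr6:7693214-7693243, minus strand: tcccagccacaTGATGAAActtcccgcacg
Atf3, chr1:191183425-191183454, minus strand: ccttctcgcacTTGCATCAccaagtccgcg
Chac1, chr2:119351038-119351067, plus strand: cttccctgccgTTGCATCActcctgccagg
Herpud1, chr8:94386306-94386335, plus strand: accacggcgggTTGCATCAgcccgcacccc
Trib3, chr2:152344028-152344057, minus strand: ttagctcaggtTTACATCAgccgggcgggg
The match of Asns reads in the direction of the gene and the other four read on the opposite strand. By the RefSeq start sites, the match began 23 bases before the start in Asns, 110 in Atf3, 112 in Herpud1 and 193 in Chac1. In Trib3 it began 14 bases after the start. These start sites differ from the ends of the GENCODE spans given above. By those spans the matches of Asns and Atf3 lie inside the gene and that of Trib3 lies before it. The matches of Herpud1 and Chac1 lie before the gene by both. A match is a description of letters and does not show that a factor binds there.

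For Hspa5, the member with the highest level, the 250 bases before the RefSeq start site are shown. The ERSE is in capitals, at positions 65 to 47 before that start. By the GENCODE span given above, the ERSE lies inside the gene.
Hspa5, chr2:34771840-34772089, plus strand: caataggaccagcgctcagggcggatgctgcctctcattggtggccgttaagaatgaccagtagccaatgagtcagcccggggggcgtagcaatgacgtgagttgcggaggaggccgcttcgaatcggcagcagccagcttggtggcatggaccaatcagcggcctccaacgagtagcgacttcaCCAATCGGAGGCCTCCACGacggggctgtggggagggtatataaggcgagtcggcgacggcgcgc

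The unit of all levels below is the deposited FPKM value, fragments counted per kilobase of a gene's transcript and divided by the library's total of mapped fragments, so levels can be set side by side between genes. Every FPKM value is rounded to 2 decimals, the reads behind it were not given, and the depth of the samples is unknown. FPKM values summed to between 308828 and 363330 per sample, and replicates of a group correlated at 0.958 to 0.978. Among cell type markers, the 6 neural stem and progenitor markers summed to 2602 to 2828 FPKM in proliferating Ctrl and 915.42 to 987.51 in differentiation Ctrl, with Prom1 under 1 FPKM in every sample. Neuronal markers summed to 21.88 to 35.03 in all samples. The 6 microglia markers and the 6 endothelial and mural markers were under 1 FPKM each in every sample. In bulk samples, fewer cells of a type and less RNA per cell cannot be told apart.

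Levels of the members differed widely. In proliferating Ctrl, Hspa5 (97.9 ± 4.46 FPKM, SD, n = 3) and Atf4 (60.1 ± 13.3) were highest, followed by Sesn2 (20.4 ± 2.09), Asns (15.4 ± 2.04) and Ddit3 (8.18 ± 1.77). Herpud1 (5.33 ± 0.266) and Xbp1 (5.33 ± 0.497) did not differ beyond their spread, Chac1 had 2.42 ± 0.248 and Trib3 1.51 ± 0.607, and Atf3 was lowest at 0.873 ± 0.156. In differentiation NAD+, Hspa5 (62.0 ± 1.60) was still first, and Atf4 (17.2 ± 0.466) and Sesn2 (15.3 ± 1.96) were next and within their spread of each other, followed by Herpud1 (10.3 ± 1.74) and Ddit3 (10.2 ± 0.494). Trib3 was lowest there, at 0.847 ± 0.752.

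**Figure D1:**
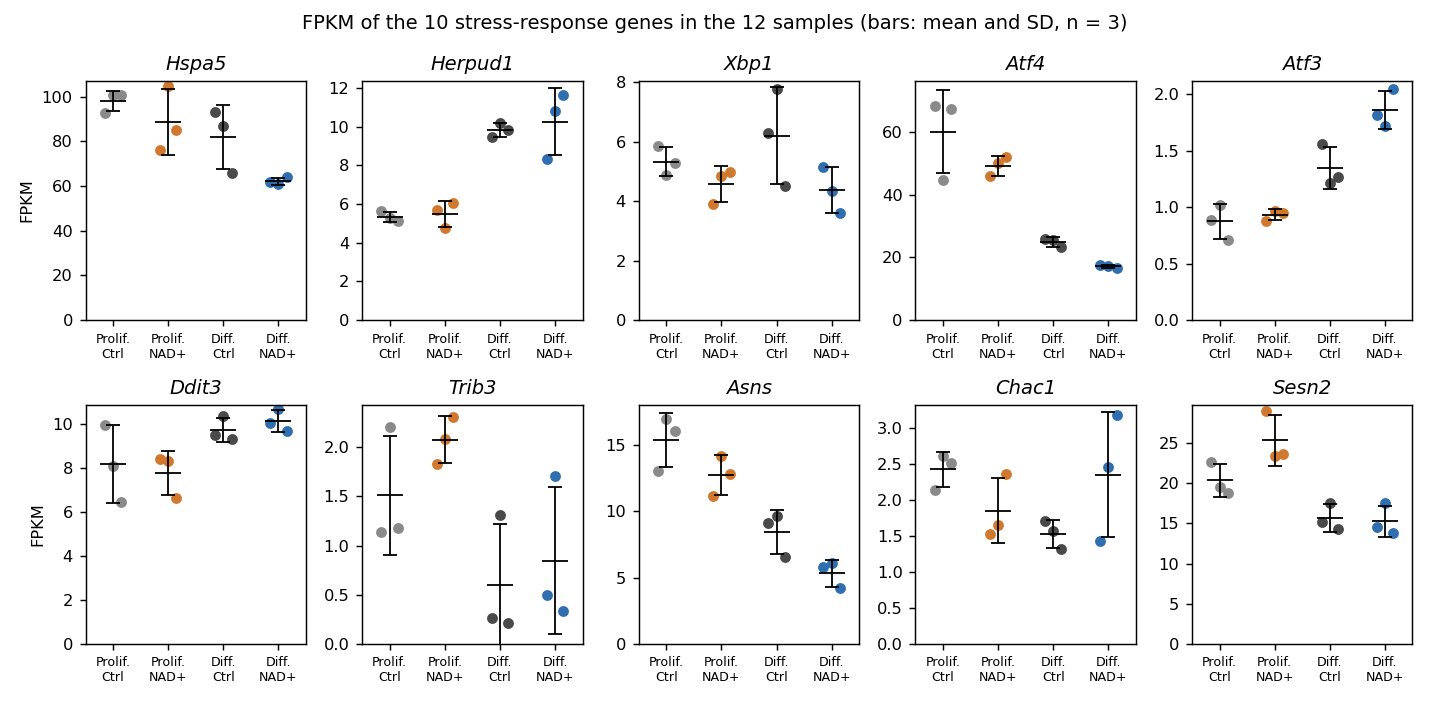
FPKM (y axis, from 0) of each member in the 3 samples of each of the 4 groups (x axis), with mean and SD as bars. The SD bar of Trib3 in differentiation Ctrl is clipped at 0. Atf4 and Asns are low in both differentiation groups, Herpud1 and Atf3 are high there, and Trib3 has 1 sample far above the others in each differentiation group.

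The first comparison asks which members responded to NAD+ while the cells were dividing. No member passed the test: 0 of 10 had an adjusted p under 0.05 by limma, where 0.145% of 18597 tested genes did (9 higher and 18 lower, or 7 and 26 with median-ratio scaling). Over all genes the 27 calls became 0 to 36 when each sample was left out in turn. Of the members, 1 of 10 had an unadjusted p under 0.05, where 15.4% did, and this count was 0 to 2 over the 14 alternatives. The study's thresholds for differentially expressed genes (DEGs) are a p-value under 0.05 and a fold change over 2. Here they were applied to the unadjusted limma p and the ratio of mean FPKM. The DEGs given are therefore not the study's own calls. By this rule 0 of 10 members and 3.01% of tested genes were DEGs.

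Sesn2 had the lowest p of the members as deposited, whereas Asns and Chac1 had lower ones with median-ratio scaling and with quantile normalization. It was at 22.71, 19.60 and 18.75 FPKM in the Ctrl samples and at 29.01, 23.43 and 23.64 in the NAD+ samples. Every NAD+ sample was above every Ctrl sample, and Sesn2 was the 1 member of 10 whose groups did not overlap, where 24.1% of tested genes did not. The log2 fold change was 0.31 ± 0.12 (SE, n = 3 per group) with an adjusted p of 0.290 by limma, and the exact two-sided permutation test gave 0.1, the smallest value that 3 samples against 3 allow.

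The other members overlapped between the groups. Atf4 was at 68.23, 44.73 and 67.37 FPKM in Ctrl and at 45.82, 50.03 and 52.05 in NAD+, so its second Ctrl sample lay below all NAD+ samples and the other Ctrl samples above them. Its log2 fold change was -0.26 ± 0.17 (adjusted p 0.496 by limma), and without proliferating Ctrl replicate 2 it was -0.46 (adjusted p 0.211 by limma). Chac1 was at 2.14, 2.61 and 2.51 in Ctrl and at 1.53, 1.65 and 2.36 in NAD+, with the third NAD+ sample inside the Ctrl range, and its log2 fold change was -0.39 ± 0.19 (adjusted p 0.385 by limma). Asns was at 13.08, 16.97 and 16.07 in Ctrl and at 11.18, 14.20 and 12.86 in NAD+ (log2 fold change -0.27 ± 0.14). The exact permutation p of Asns and of Chac1 was 0.2, n = 3 per group.

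Hspa5 was at 92.74, 100.46 and 100.48 FPKM in Ctrl and at 76.02, 104.71 and 85.00 in NAD+, where its second sample was the highest of the 6. Trib3 was at 1.14, 2.21 and 1.18 in Ctrl and at 1.83, 2.09 and 2.31 in NAD+, with the second Ctrl sample inside the NAD+ range. Log2 fold changes were -0.16 ± 0.13 for Hspa5 and 0.49 ± 0.27 for Trib3. For Herpud1, Xbp1, Atf3 and Ddit3 they ranged from -0.22 (Xbp1) to 0.10 (Atf3), and the median over the 10 members was -0.11, beside 0.0723 over all tested genes.

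The second comparison asks the same under differentiation conditions. There Atf4 fell and was the only member past the test, 1 of 10 where 6.92% of 19611 tested genes passed (2.27% higher and 4.65% lower). Over all genes, 445 rose and 912 fell as deposited, and 613 rose and 532 fell with median-ratio scaling. The 1357 calls became 328 to 719 when each sample was left out in turn. At an unadjusted p under 0.05 there were 4 of 10 members (Atf4, Asns and Hspa5 lower, Atf3 higher), where 24.2% of tested genes passed, and 16.7% did so with a lower value. This count of members was 2 to 6 over the 14 alternatives, and Hspa5 and Atf3 did not stay in all of them. None of the 10 was a DEG, where 4.05% of tested genes were.

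Atf4 was at 25.92, 25.56 and 23.17 FPKM in Ctrl and at 17.62, 17.34 and 16.71 in NAD+. All NAD+ samples lay below all Ctrl samples, and the gap between the groups was wider than the spread within either. The mean ratio was 0.692, the log2 fold change -0.53 ± 0.06 (SE, n = 3 per group) and the adjusted p 0.0087 by limma. In all 14 alternative fits its adjusted p stayed under 0.05, from 0.0062 to 0.0437, with log2 fold changes from -0.58 to -0.44. The exact permutation test gave 0.1, again the smallest it allows.

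Of the 5 members with a CARE shown above, Asns alone had a log2 fold change below 0. Those of Atf3 (0.44), Chac1 (0.53), Trib3 (0.52) and Herpud1 (0.05) were above 0, and none of the 5 passed the test. Asns was at 9.11, 9.63 and 6.55 FPKM in Ctrl and at 5.78, 6.08 and 4.18 in NAD+. Its groups did not overlap, but the third Ctrl sample was near the NAD+ samples, and the third sample was lowest in both groups. The log2 fold change was -0.65 ± 0.20, a larger value than that of Atf4 with a wider error, and the adjusted p was 0.108 by limma.

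Hspa5 was at 93.26, 86.74 and 65.78 FPKM in Ctrl and at 61.57, 60.69 and 63.80 in NAD+. The third Ctrl sample was near the 3 NAD+ samples, which lay close together, and the other Ctrl samples were well above. The log2 fold change was -0.39 ± 0.13 with an adjusted p of 0.130 by limma, and without differentiation Ctrl replicate 3 it was -0.54 with an adjusted p of 0.0249. Atf3 was at 1.56, 1.21 and 1.27 in Ctrl and at 1.82, 1.72 and 2.05 in NAD+, all above the Ctrl samples, with a log2 fold change of 0.44 ± 0.14 and an adjusted p of 0.119 by limma. Asns, Hspa5, Atf3 and Atf4 made 4 of 10 members whose groups did not overlap, where 30.7% of tested genes did not.

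Xbp1 was at 6.27, 7.78 and 4.52 FPKM in Ctrl and at 5.16, 4.34 and 3.61 in NAD+, and the groups overlapped at the third Ctrl sample (log2 fold change -0.47 ± 0.22, adjusted p 0.248 by limma). Chac1 was at 1.70, 1.56 and 1.32 in Ctrl and at 1.43, 2.45 and 3.17 in NAD+, where the samples differed by more than the Ctrl and NAD+ means did (0.53 ± 0.28). Trib3 was at 0.26, 1.31 and 0.21 in Ctrl and at 0.50, 1.71 and 0.33 in NAD+. Its second sample was far above the others in both groups, so the fold change of 0.52 ± 0.75 on the log2 scale is not resolved. Herpud1 (0.05 ± 0.13), Ddit3 (0.06 ± 0.07) and Sesn2 (-0.04 ± 0.12) had log2 fold changes within 1 SE of 0, and the sign of Sesn2 turned with median-ratio scaling (0.04) and with quantile normalization (0.02). The members' median was 0.005, beside -0.085 over all tested genes.

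**Figure D2:**
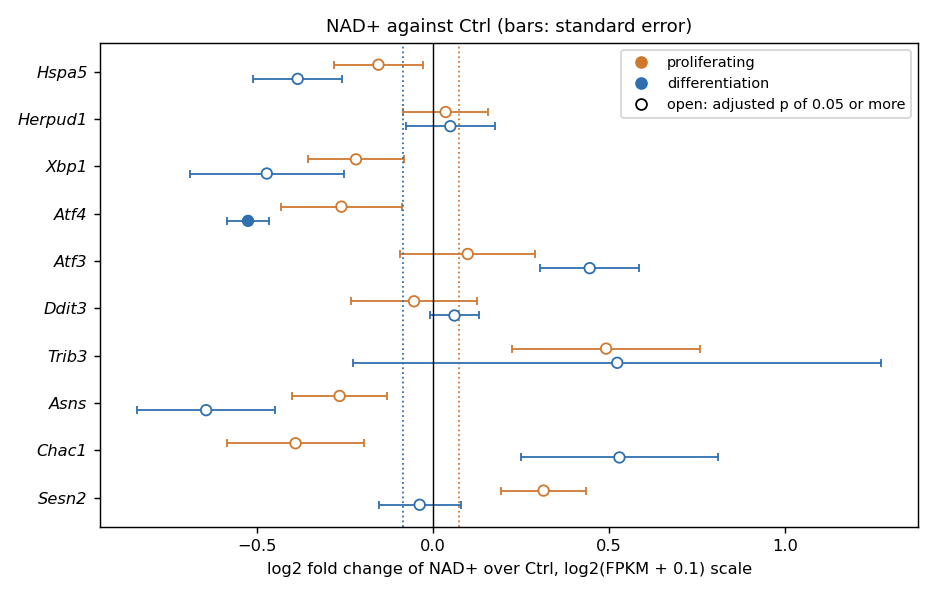
Log2 fold change of NAD+ over Ctrl (x axis, log2(FPKM + 0.1) scale) for each member (y axis) under proliferating (orange) and differentiation (blue) conditions, with standard errors. Filled points passed an adjusted p of 0.05, which Atf4 under differentiation conditions alone did, and dotted lines mark the medians of all tested genes, 0.0723 and -0.085.

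Samples with the same replicate number showed the same order in both differentiation groups for 5 of 10 members (Atf4, Ddit3, Trib3, Asns and Sesn2), where 20.4% of tested genes did. Under proliferating conditions it was 2 of 10 members, where 20.3% did.

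Cell type markers moved with NAD+ in the same samples. Under differentiation conditions the 5 astrocyte markers summed to 825.87 to 919.70 FPKM in Ctrl and to 1217 to 1255 in NAD+, the 6 oligodendrocyte lineage markers to 216.93 to 233.20 and to 148.83 to 156.00, and the 6 neural stem and progenitor markers to 915.42 to 987.51 and to 1025 to 1099. Under proliferating conditions the stem and progenitor markers summed to 2602 to 2828 in Ctrl and to 1573 to 2069 in NAD+. Their part in the difference of Atf4 was not tested.

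Whether the response to NAD+ differed between the conditions was tested directly in a fit of all 12 samples. None of the 10 members passed, where 0.467% of 19498 genes did (43 higher and 48 lower, or 70 and 24 with median-ratio scaling), and 1 had an unadjusted p under 0.05, where 15.5% did (0 to 3 over the 20 alternatives). That was Chac1, whose NAD+ effects differed by 0.92 ± 0.36 on the log2 scale (adjusted p 0.264 by limma). They had opposite signs, -0.39 under proliferating and 0.53 under differentiation conditions. For Atf4 the difference between the effects was -0.27 ± 0.19 (adjusted p 0.531 by limma), so the fall under differentiation conditions was not shown to differ from the value of -0.26 under proliferating conditions. Without proliferating Ctrl replicate 2 that difference was -0.07, and over the 20 alternatives it ranged from -0.37 to -0.07.

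The largest differences of the members lay between the culture conditions. In Ctrl, 5 of 10 members changed between proliferating and differentiation conditions, where 56.7% of 19498 tested genes did. Herpud1 and Atf3 rose, as 25.0% of genes did, and Atf4, Asns and Sesn2 fell, as 31.6% did. In NAD+, 7 of 10 changed, where 58.4% did: Herpud1, Atf3 and Ddit3 rose (20.8% of genes rose), and Hspa5, Atf4, Asns and Sesn2 fell (37.6% fell). These shares are close to those of all genes. The comparisons in Ctrl and in NAD+ and those of NAD+ with Ctrl share samples, so they are given side by side only. The astrocyte markers summed to 267.24 to 360.33 FPKM in proliferating Ctrl and to 825.87 to 919.70 in differentiation Ctrl, and to 216.68 to 323.32 and 1217 to 1255 in NAD+. The ependymal markers summed to 9.60 to 11.55 and 28.58 to 31.73 in Ctrl, and most of this was Foxj1 (8.70 to 29.38 FPKM over all samples). Rsph1 reached 1.79 and Ccdc153 0.94, and Tmem212 was at 0 in every sample. With that of the stem and progenitor markers given above, these sums moved with the culture conditions. The part of the markers in the members' differences was not tested.

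Atf4 had the largest called fall in both. Its 3 proliferating Ctrl samples were at 44.73 to 68.23 FPKM and its differentiation Ctrl samples at 23.17 to 25.92, a log2 fold change of -1.24 ± 0.14, or -0.79 with quantile normalization. In NAD+ the samples went from 45.82 to 52.05 down to 16.71 to 17.62, a log2 fold change of -1.51 ± 0.14. No sample overlapped between the conditions in either group. Asns fell by 0.87 on the log2 scale in Ctrl (SE 0.18, adjusted p 0.0017 by limma) and by 1.25 in NAD+ (SE 0.18). Both were called in all 14 alternative fits of each comparison.

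Herpud1, whose product helps ER-associated degradation, rose from 5.10 to 5.62 FPKM in proliferating Ctrl to 9.46 to 10.19 in differentiation Ctrl, with a log2 fold change of 0.87 ± 0.13, and in NAD+ it rose by 0.89 ± 0.13. Atf3 rose by 0.58 ± 0.16 in Ctrl (adjusted p 0.0095 by limma) and by 0.92 ± 0.16 in NAD+, from 0.88 to 0.97 FPKM to 1.72 to 2.05. With 1 in place of 0.1 added before the log, the values of Atf3 were 0.33 and 0.57. These changes were also called in all 14 alternative fits of each comparison.

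The calls of Hspa5, Sesn2 and Ddit3 were lost in some alternatives. All tested genes shifted by a median of -0.0595 in Ctrl and -0.203 in NAD+ on the log2 scale, which became 0.0587 and 0.0526 with median-ratio scaling. In NAD+ 4050 genes rose and 7336 fell as deposited, and 5614 rose and 5388 fell with that scaling. Hspa5 in NAD+ was at 76.02 to 104.71 FPKM under proliferating and 60.69 to 63.80 under differentiation conditions, and fell by 0.50 (SE 0.13, adjusted p 0.0077 by limma). With median-ratio scaling its value was -0.22 (adjusted p 0.169 by limma) and with quantile normalization -0.03 (0.876). Sesn2 in Ctrl fell by 0.38 (SE 0.12, adjusted p 0.0233 by limma), and the adjusted p was 0.148 with median-ratio scaling and 0.803 with quantile normalization. It was 0.0810 without proliferating Ctrl replicate 1, 0.0651 without differentiation Ctrl replicate 1 and 0.0868 without differentiation Ctrl replicate 3. In NAD+ Sesn2 fell by 0.73 (SE 0.12), and its adjusted p by limma was 0.0870 with quantile normalization.

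Ddit3 in NAD+ rose by 0.38 (SE 0.14, adjusted p 0.0395 by limma), from 6.65 to 8.42 FPKM to 9.70 to 10.68. Its adjusted p by limma was 0.153 without proliferating NAD+ replicate 3, 0.0779 without differentiation NAD+ replicate 1, 0.106 without replicate 2 and 0.0602 without replicate 3, and it was 0.0600 without the filter on low values and 0.0559 without the variance trend. Trib3 was -1.51 ± 0.61 in Ctrl and -1.48 ± 0.61 in NAD+ on the log2 scale, with adjusted p of 0.0540 and 0.0570 by limma. Without differentiation Ctrl replicate 2 the value in Ctrl was -2.21 with an adjusted p of 0.0052, and without differentiation NAD+ replicate 2 the value in NAD+ was -2.09 with an adjusted p of 0.0106. Xbp1 had values of 0.18 ± 0.19 in Ctrl and -0.07 ± 0.19 in NAD+, the latter turning to 0.21 with median-ratio scaling. Chac1 had -0.63 ± 0.26 in Ctrl and 0.29 ± 0.26 in NAD+, and passed in neither (adjusted p 0.0544 and 0.359 by limma). Of the 14 alternatives it was called in 2 in Ctrl and in 1 in NAD+.

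**Figure D3:**
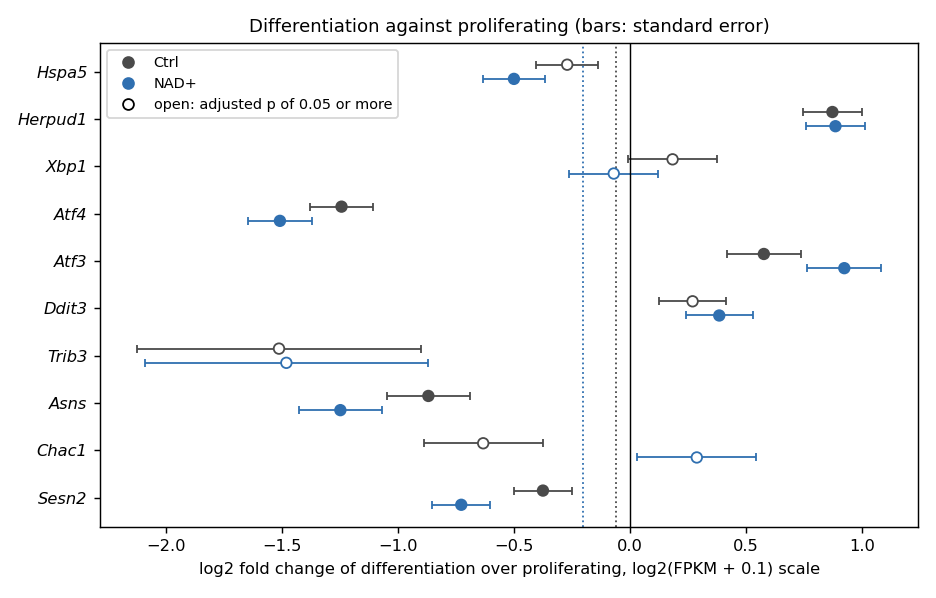
Log2 fold change of differentiation over proliferating (x axis, log2(FPKM + 0.1) scale) for each member (y axis) in Ctrl (dark grey) and NAD+ (blue), with standard errors. Filled points passed an adjusted p of 0.05, and dotted lines mark the medians of all tested genes, -0.0595 and -0.203. Atf4 and Asns lie to the left and Herpud1 and Atf3 to the right in both.

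The other genes of the pathway were taken from 7 lists and are described by counts. Genes of amino acid supply, many of them known targets of Atf4, held the most calls of the 7 lists for NAD+ against Ctrl under differentiation conditions. Under differentiation conditions 3 of 20 genes for amino acid synthesis and transport rose and 9 fell, where 2.27% and 4.65% of all tested genes did, with a median log2 fold change of -0.32, and over the 14 alternatives 2 to 3 rose and 4 to 9 fell. Leaving out any 1 of the differentiation samples left 4 to 5 falls, in fits with fewer samples. Under proliferating conditions 0 of 20 passed in either direction, 9 were lower at an unadjusted p under 0.05, where 6.05% of genes were, and the median was -0.22.

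Split by role, a split made after the values were seen, all 11 synthesis enzymes were lower in NAD+ under differentiation conditions, except Shmt2 with median-ratio scaling, and 7 of them fell (4 with median-ratio scaling or quantile normalization, Phgdh, Aldh18a1, Gpt2 and Got1). Phgdh, the first enzyme of serine synthesis, was at 90.32, 90.06 and 100.75 FPKM in Ctrl and at 51.79, 53.18 and 45.96 in NAD+. Its NAD+ samples were all far below the Ctrl samples, and its log2 fold change was -0.90 ± 0.08 (adjusted p 0.0046 by limma). Gpt2, a mitochondrial alanine aminotransferase, fell by 0.55 (SE 0.06, adjusted p 0.0073 by limma). Of the 9 transporters 3 rose and 2 fell, also with either scaling. Slc7a11, the cystine transporter, was at 15.41, 17.29 and 20.62 in Ctrl and at 31.57, 33.71 and 37.55 in NAD+, with no overlap and a log2 fold change of 0.95 ± 0.12 (adjusted p 0.0106 by limma). Slc38a2, a neutral amino acid transporter, rose by 0.85 ± 0.10, and Slc3a2, the partner subunit of Slc7a11, by 0.35 ± 0.07. Slc6a9, a glycine transporter, fell by 0.59 (SE 0.06, adjusted p 0.0061 by limma) and Slc7a1, an arginine and lysine transporter, by 0.70 (SE 0.13). Slc7a11, Slc38a2, Slc3a2 and Slc7a1 were chosen partly after their values were seen, as calls of the list. Under proliferating conditions Slc6a9 (-0.57), Cth (-0.45), an enzyme of cysteine synthesis, and Gpt2 (-0.24) had the lowest p of the list, with adjusted p of 0.159, 0.201 and 0.206 by limma.

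**Figure D4:**
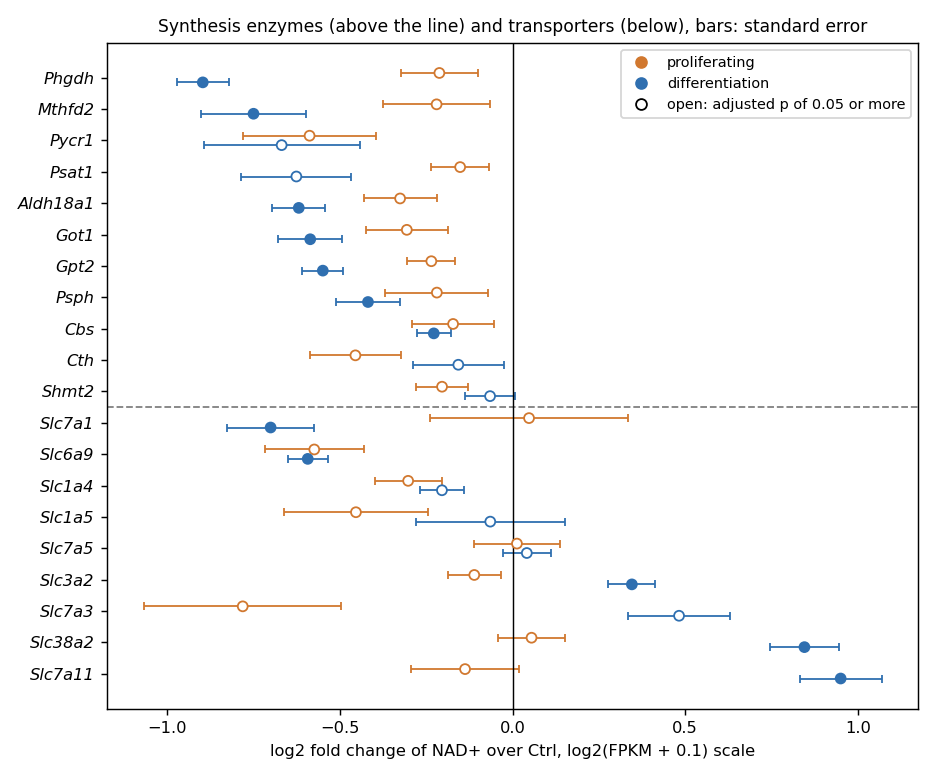
Log2 fold change of NAD+ over Ctrl (x axis, log2(FPKM + 0.1) scale) with standard errors for the 20 genes of amino acid supply, synthesis enzymes above the dashed line and transporters below, under proliferating (orange) and differentiation (blue) conditions. Filled points passed an adjusted p of 0.05. All 11 enzymes lie left of 0 in both conditions (Shmt2 turns with median-ratio scaling under differentiation conditions), whereas under differentiation conditions transporters lie on both sides.

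Of the 21 genes of the aminoacyl-tRNA synthetase list, which also holds the tRNA exporter Xpot, 5 fell and none rose under differentiation conditions, where 4.65% of all tested genes fell. Of the list 17 were lower at an unadjusted p under 0.05, where 16.7% of all were. The median log2 fold change was -0.29, and the calls over the 14 alternatives numbered 1 to 8, with 1 to 4 when any 1 of the samples was left out. The synthetases load tRNAs with their amino acids, and Mars1 (-0.42 ± 0.05), Iars (-0.43 ± 0.06) and Yars (-0.43 ± 0.07) had the lowest p, with adjusted p of 0.0103, 0.0166 and 0.0176 by limma. Iars was at 9.80, 11.07 and 10.42 FPKM in Ctrl and at 7.67, 7.70 and 7.69 in NAD+, without overlap. Under proliferating conditions the median was 0.03 and 0 of 21 passed, with 1 higher at an unadjusted p under 0.05, Dars (0.24, adjusted p 0.318 by limma), followed by Wars (0.19) and Gars (-0.16). In the test of the difference between the conditions 0 of 21 passed, and 9 were lower at an unadjusted p under 0.05, where 12.2% of genes were. The list median of this difference was -0.28 as deposited, beside -0.155 over all tested genes. With median-ratio scaling these medians were -0.13 and -0.0149.

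The ER lists held few calls, beside the 2.27% of all tested genes that rose and the 4.65% that fell. Of 17 sensors and regulators 1 fell under differentiation conditions, Eif2b4 (-0.34 ± 0.07, adjusted p 0.0427 by limma), a subunit of the exchange factor of eIF2, and a fall was called in this list in 3 of 14 alternatives. Of 18 ER chaperones and folding enzymes 1 fell, Sil1 (-0.34 ± 0.06, adjusted p 0.0255 by limma), the nucleotide exchange factor of BiP, and Sdf2l1 (-0.46) and Manf (-0.23) had adjusted p of 0.123 and 0.0617. A fall was called in that list in 6 of 14 alternatives. Of 15 genes of ER-associated degradation 1 rose, Edem2 (0.48 ± 0.07, adjusted p 0.0136 by limma), which trims mannose from misfolded glycoproteins. Edem2 was at 18.75, 20.28 and 18.05 FPKM in Ctrl and at 26.98, 27.47 and 25.01 in NAD+, without overlap, and a rise was called in its list in 11 of 14 alternatives, the exceptions being the fits with no variance trend, without differentiation Ctrl replicate 1 and without differentiation Ctrl replicate 3. Under proliferating conditions 0 genes of these 3 lists passed by limma, and 3 had an unadjusted p under 0.05, where 15.4% of all tested genes did, which were Ern1 (0.61), the gene of Ire1, Pdia6 (-0.23), a protein disulfide isomerase, and Edem2 (0.37).

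The remaining genes with the lowest p of the ER lists did not pass. Under differentiation conditions they were Ppp1r15a (0.42), which directs a phosphatase to eIF2, Eif2b1 (-0.18), another subunit of its exchange factor, and Os9 (0.15) and Derl2 (0.21), which act in ER-associated degradation. Under proliferating conditions they were the proteases Mbtps1 (0.22) and Mbtps2 (0.33), which release Atf6, the chaperones Dnajb9 (-0.29) and Ppib (-0.17), and Edem3 (0.33) and Vcp (0.15), which act in degradation. All these values are log2 fold changes.

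Among 17 tested stress transcription factors and growth arrest genes, Gadd45a rose and Ddit4 fell under differentiation conditions, where 2.27% of all tested genes rose and 4.65% fell, and Fgf21 was below the minimum level. A rise was called in this list in 13 of 14 alternatives, all but the fit without differentiation Ctrl replicate 1, and a fall in 8 of 14. Gadd45a, a growth arrest and DNA damage gene, was at 5.69, 5.05 and 6.15 FPKM in Ctrl and at 11.59, 13.70 and 18.11 in NAD+ (log2 fold change 1.33 ± 0.17, adjusted p 0.0110 by limma). Ddit4, an inhibitor of mTORC1, was at 52.95, 56.37 and 46.98 in Ctrl and at 31.87, 34.58 and 23.04 in NAD+ (-0.82 ± 0.16, adjusted p 0.0330 by limma). Both moved without overlap, and Sesn3, a relative of Sesn2, had 0.34 (adjusted p 0.0895 by limma). Under proliferating conditions Gdf15, a secreted factor induced by the integrated stress response and by p53, was at 1.08 to 2.15 FPKM in Ctrl and at 4.85 to 7.75 in NAD+, and Gadd45a had a log2 fold change of 0.76. Neither passed, with adjusted p of 0.0736 and 0.0600 by limma, and Eif4ebp1, a translation inhibitor, had -0.52 (0.0758). Of the 17 genes, 5 were higher and 2 lower at an unadjusted p under 0.05. Of all tested genes 15.4% passed that threshold, and 6.05% did so with a lower value. By the DEG rule 2 of the 17 were DEGs, where 3.01% of tested genes were. Over the 14 alternatives 0 to 1 genes of this list rose and 0 to 1 fell. The list of 14 cytosolic heat shock genes also holds Hspe1 and Hspd1, a mitochondrial co-chaperone and a mitochondrial chaperone. Of this list 1 gene fell under differentiation conditions, Hspe1 (-0.36 ± 0.07, adjusted p 0.0353 by limma), where 4.65% of all tested genes fell. A fall was called in this list in 5 of 14 alternatives. Dnajb1 (-0.36), a co-chaperone, and Hspd1 (-0.29) did not pass. Under proliferating conditions 0 of 14 passed by limma, and 3 had an unadjusted p under 0.05, where 15.4% of all tested genes did, Hspa1b (0.41), Hsf1 (0.51) and Hsph1 (0.20). The authors kept uniquely mapped reads, which leaves out those that fit both Hspa1b and its near-identical copy Hspa1a, so the value of Hspa1b is uncertain.

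The genes most like Asns over the 12 samples, among 11640 genes compared, were Yars (Pearson correlation of log2 values 0.983), Fbxw8 (0.975), Spata5l1 (0.975), Arhgef2 (0.974) and Gm8399 (0.972). Those most like Hspa5 were Dhps (0.939), Vps52 (0.926), Tsen34 (0.917), Arhgap33 (0.913) and Elac2 (0.907). These are descriptions, and the samples fall into 2 culture conditions that the correlations follow. Atf4 and Asns correlated at 0.917 over the 12 samples and at 0.006 around their group means, so their likeness lay between the groups. Hspa5 and Asns correlated at 0.899 and at 0.653 around the group means.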

How the data were processed

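RNA-seq of aNSPCs was analysed from the deposited FPKM values of 12 samples. The authors mapped reads to mm10 with Hisat2, counted them with FeatureCounts, and each culture condition has its own table of FPKM values as deposited. Deposited fold changes, p-values and q-values in the same tables are the authors' own comparisons and were not used. The members and gene lists were chosen with earlier results of these data known.

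FPKM values were not rescaled. Their log2 was computed after a pseudocount of 0.1, and genes whose mean FPKM reached 0.1 were fitted with limma 3.58.1 in R 4.3.3 (moderated variance with a trend, two-sided, Benjamini-Hochberg over all tested genes). NAD+ against Ctrl was fitted within each table. Other contrasts came from a fit of all 12 samples, and since both tables hold values made per sample, levels were set across them as deposited. Exact permutation tests used the difference of mean FPKM. For the DEG rule, FPKM values of 0 were raised to 0.0001. All 10 members were named, then the 3 genes of each list with the lowest p per condition whose mean FPKM reached 1, and the 5 genes most correlated with Asns and with Hspa5. The code was tested on simulated data. Alternatives were other pseudocounts (1, 0.01), no filter or a minimum mean of 1, median-ratio scaling, quantile normalization, a replicate block, no variance trend, and leaving out each sample. Figures were drawn with matplotlib 3.10.9 in Python 3.11.15.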

Additional observations from a re-analysis of the deposited data

Results flagged for a closer look

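One listed gene had an NAD+ effect that differed between the conditions by the test of the difference itself, and it was chosen after its values were seen. Slc38a2, a neutral amino acid transporter, was at 22.32, 20.17 and 19.42 FPKM in proliferating Ctrl and at 23.59, 20.05 and 20.74 in proliferating NAD+, against 21.18, 22.66 and 24.40 in differentiation Ctrl and 36.34, 40.64 and 46.26 in differentiation NAD+. The effects differed by 0.79 ± 0.14 on the log2 scale (adjusted p 0.0467 by limma). In 14 of 20 alternatives, among them the fit without the filter on low values and that with the replicate block, 0 genes of its list rose by this test.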

How the results depend on the processing

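The count of members past the test under differentiation conditions was 1, and it was 2 with the replicate block (Atf4 and Asns, the latter with an adjusted p of 0.0292 by limma) and 1 to 2 when each sample was left out in turn. The other counts of members with an adjusted p under 0.05, and of DEGs, stayed within 1.5 times. The deviations of same-numbered samples from their group means correlated at 0.0218 to 0.112 under proliferating and at 0.0260 to 0.0431 under differentiation conditions, so the number was not taken to pair them. Each Ctrl sample was compared with the NAD+ samples of its condition, and it correlated best with its own number except for proliferating replicate 3. With the block, 0 and 758 genes passed in place of 27 and 1357. Between culture conditions the block added Trib3 in Ctrl (adjusted p 0.0114 by limma) and in NAD+ (0.0120), and Chac1 in Ctrl (0.0476). The block was not alone in this: of 14 alternatives Trib3 was called in 4 in Ctrl and in 4 in NAD+. Scaling turned Herpud1 under proliferating conditions to -0.030 (median-ratio) and -0.064 (quantile), Sesn2 under differentiation conditions to 0.044 and 0.023, Xbp1 between conditions in NAD+ to 0.21 and 0.23, and Hspa5 between conditions in Ctrl to 0.22 (quantile). Adding 1 turned the difference of effects of Trib3 to -0.11. The cause was not tested.

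With each sample left out, values that changed sign ranged, under proliferating conditions, from -0.028 to 0.21 for Atf3, -0.21 to 0.099 for Ddit3 and -0.036 to 0.13 for Herpud1. Under differentiation conditions they ranged from -0.049 to 0.19 for Herpud1, -0.14 to 0.047 for Sesn2 and -0.088 to 1.22 for Trib3. For the difference of effects they ranged from -0.039 to 0.27 for Ddit3, -0.085 to 0.16 for Herpud1 and -0.58 to 0.72 for Trib3, and for Xbp1 between conditions in NAD+ from -0.20 to 0.057. None of these had passed the test. The FPKM values carry no read counts, so depth limits the low members, Trib3, Atf3 and Chac1, by an unknown amount.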
